A study of Mus musculus with 8 samples.

Results

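The 6 mRNAs described here are those of Nat10 (the gene for the ac4C-writing enzyme, deleted in this study), of the nucleolar proteins nucleolin (Ncl) and nucleophosmin (Npm1), and of the translation factors Eef1a1, Eef2 and Eif4a1. N4-acetylcytidine (ac4C), a cytosine carrying an acetyl group, was mapped by sequencing RNA fragments bound by an ac4C antibody (IP) beside an unselected portion (input). The cells were bone marrow-derived monocytes kept for 3 days with RANKL, the cytokine that turns monocytes into bone-resorbing osteoclasts. They came from wild-type mice (WT, 2 IP and 2 input samples) or from mice with a conditional knockout of Nat10 (CKO, 2 IP and 2 input samples), and all 8 samples went through the same 3 days of osteoclast differentiation. The design text asks how the Nat10-dependent mark bears on osteoclast formation. The Cre driver, the deleted exons, the strain, the sex and age of the mice and whether animals were pooled are not stated in the labels. Each genotype is represented by 2 peak lists, WT 1 and WT 2 and CKO 1 and CKO 2, each made by the authors from 1 IP library and its input.

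A peak belonged to a member if it shared 1 or more bases, on the same strand, with a span given to 1 kb in mm39. The spans were chromosome 2 minus strand 103551 to 103592 kb for Nat10, chromosome 1 minus strand 86272 to 86288 kb for Ncl, chromosome 11 minus strand 33102 to 33114 kb for Npm1, chromosome 9 minus strand 78385 to 78390 kb for Eef1a1, chromosome 10 plus strand 81012 to 81019 kb for Eef2 and chromosome 11 minus strand 69558 to 69564 kb for Eif4a1. They held 45 of the 105252 peaks of the 4 lists. No list had a peak within 1 kb outside any of the 6 spans on the same strand, or inside them on the opposite strand. The spans include introns, and exon, intron and UTR borders were not used here for want of an mm39 annotation. Distances below are counted from the 5′ edge of the span, which can lie some way before the transcript's start.

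NAT10 acetylates cytidines in 18S ribosomal RNA and, with a partner protein, in transfer RNA, and ac4C in mRNA has been linked to mRNA stability and translation. Nucleolin and nucleophosmin are abundant proteins that act in the making of ribosomes in the nucleolus, where NAT10 itself is concentrated. The elongation factor eEF1A1 brings aminoacyl-tRNA to the ribosome, eEF2 moves the ribosome along the mRNA, and the helicase eIF4A1 unwinds the 5′ end of mRNAs for initiation. Such factors belong to the most abundant proteins of growing cells.

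The 4 lists held 24249 to 28087 peaks. The read depth behind them is unknown, so no interval can be given for a single peak, and an absent peak is one that was not called or not kept in the list. WT 2 stood apart in the form of its peaks: 6.51% of them were exactly 200 bases wide, against 24.0% to 24.4% in the other 3 lists, and its median score was 29.5 against 71.3 to 117. The score is the authors' own value for a peak, and it served to rank the peaks of a list against each other, as the percentile of peaks with an equal or lower score. A peak is a call of IP over input, not a level of mRNA. Loss of Nat10 mRNA in the CKO cells therefore could not be checked, and the markers of osteoclasts, macrophages and other marrow cells were not located here.

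The 6 spans together held about as many called peaks in either genotype, and the 2 CKO lists lay on either side of the WT lists. WT 1 held 12 peaks in the 6 spans, WT 2 held 11, CKO 1 held 8 and CKO 2 held 14. CKO 1, the longest list, had the fewest of these peaks and CKO 2, the shortest, the most. WT lists averaged 11.5 ± 0.707 peaks and CKO lists 11 ± 4.24 (SD, n = 2 each). The difference of -0.5 peaks was smaller than the spread between the CKO lists (exact two-sided permutation p = 1). With 2 lists against 2 this test cannot go below 0.333, and since nothing says that the samples of a genotype came from separate mice or cultures, it reflects no more than how these lists differ, possibly for technical reasons alone. The difference was 2.5 peaks without CKO 1 and -3.5 without CKO 2. The bases covered by peaks in the 6 spans came to 1419 in WT 1, 1297 in WT 2, 1116 in CKO 1 and 1842 in CKO 2.

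**Figure D1:**
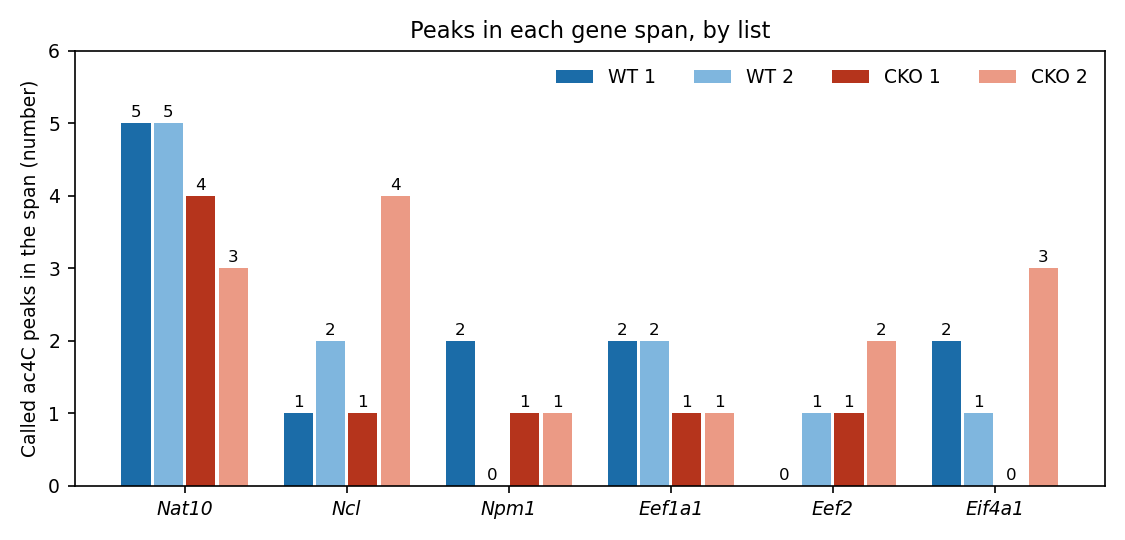
Bars give the number of called ac4C peaks in the span of each gene (y axis) in each of the 4 lists (colours), with the number printed above. Nat10 (5 and 5 against 4 and 3) and Eef1a1 (2 and 2 against 1 and 1) were the spans in which both WT lists held more peaks than both CKO lists.

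In the Nat10 span, the gene under deletion, peaks were called in every list, including both CKO lists. Both WT lists held 5 peaks, CKO 1 held 4 and CKO 2 held 3, so the genotypes did not overlap. WT lists averaged 5 ± 0 peaks and CKO lists 3.5 ± 0.707 (SD, n = 2 each), a difference of -1.5 peaks with an exact two-sided p of 0.333, the smallest this design allows (1 after Benjamini-Hochberg adjustment over the 6 spans). The difference was -2 without CKO 1, -1 without CKO 2 and again -1.5 without either WT list. It was -0.5, with overlapping genotypes (exact two-sided p = 1), in the higher-scoring 50% of each list and with the lists cut to equal numbers of their best-scoring peaks, and 0 in peaks of 100 bases or more. Both WT lists exceeded both CKO lists in peak number in 2 of the 6 spans, Nat10 and Eef1a1, and no span showed the opposite. Among loci of the whole lists, made by chaining same-strand peaks across gaps of up to 5000 bases, 7.16% had more peaks in both WT lists and 6.45% had more in both CKO lists. Among the 9185 loci with 4 to 17 peaks in all, the range of the 6 spans, these shares were 8.71% and 8.43%. A span is not always a locus in this sense, since gaps of more than 5000 bases part the Nat10 peaks, and the Ncl peaks, into separate loci. Outside the spans, peaks were looked for only to 1 kb, so peaks further off could join a locus of any span. The shares are therefore a rough background from an unlike unit, for these 2 spans above all. Peaks covered 368 and 282 bases of Nat10 in WT and 372 and 290 in CKO, so in covered bases the genotypes overlapped.

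The 17 Nat10 peaks fell into 12 regions, a region being all same-strand peaks that share at least 1 base, and 9 of the 12 were called in a single list. The region nearest the 5′ edge, at bases 103588111 to 103588138 and 3.86 kb into the span, was called in WT 1, WT 2 and CKO 2. It was 28 bases wide in both WT lists and 19 bases in CKO 2, and all 3 peaks had their 5′ edge at base 103588138. Its score stood at percentile 76.5 in WT 1, 80.1 in WT 2 and 32.5 in CKO 2. At the other end of the gene, 39.73 kb into the span, bases 103551941 to 103552273 carried a peak in WT 1 (percentile 67.2), CKO 1 (94.9) and CKO 2 (53.9) and none in WT 2. The CKO 1 peak there was the highest-ranked Nat10 peak of any list, and the only 1 of the 17 in the top 10% of its list.

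A Nat10 region at bases 103563264 to 103563380 was held by both WT lists and by neither CKO list, with the nearest CKO peak 4822 bases away. Its scores were among the lowest of their lists, at percentile 0.1 in WT 1 and 0.9 in WT 2. The peaks held by a single list were spread along the gene. WT 2 alone had peaks 13.37, 21.77 and 29.40 kb into the span, and WT 1 alone had peaks of 8 and 18 bases at 36.49 and 37.38 kb. CKO 1 alone had peaks at 17.24 kb (percentile 77.9, the highest mean percentile of the 12 regions), 18.30 kb and 35.89 kb, and CKO 2 alone had a peak at 33.56 kb. No Nat10 region was in both CKO lists without a WT list.

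**Figure D2:**
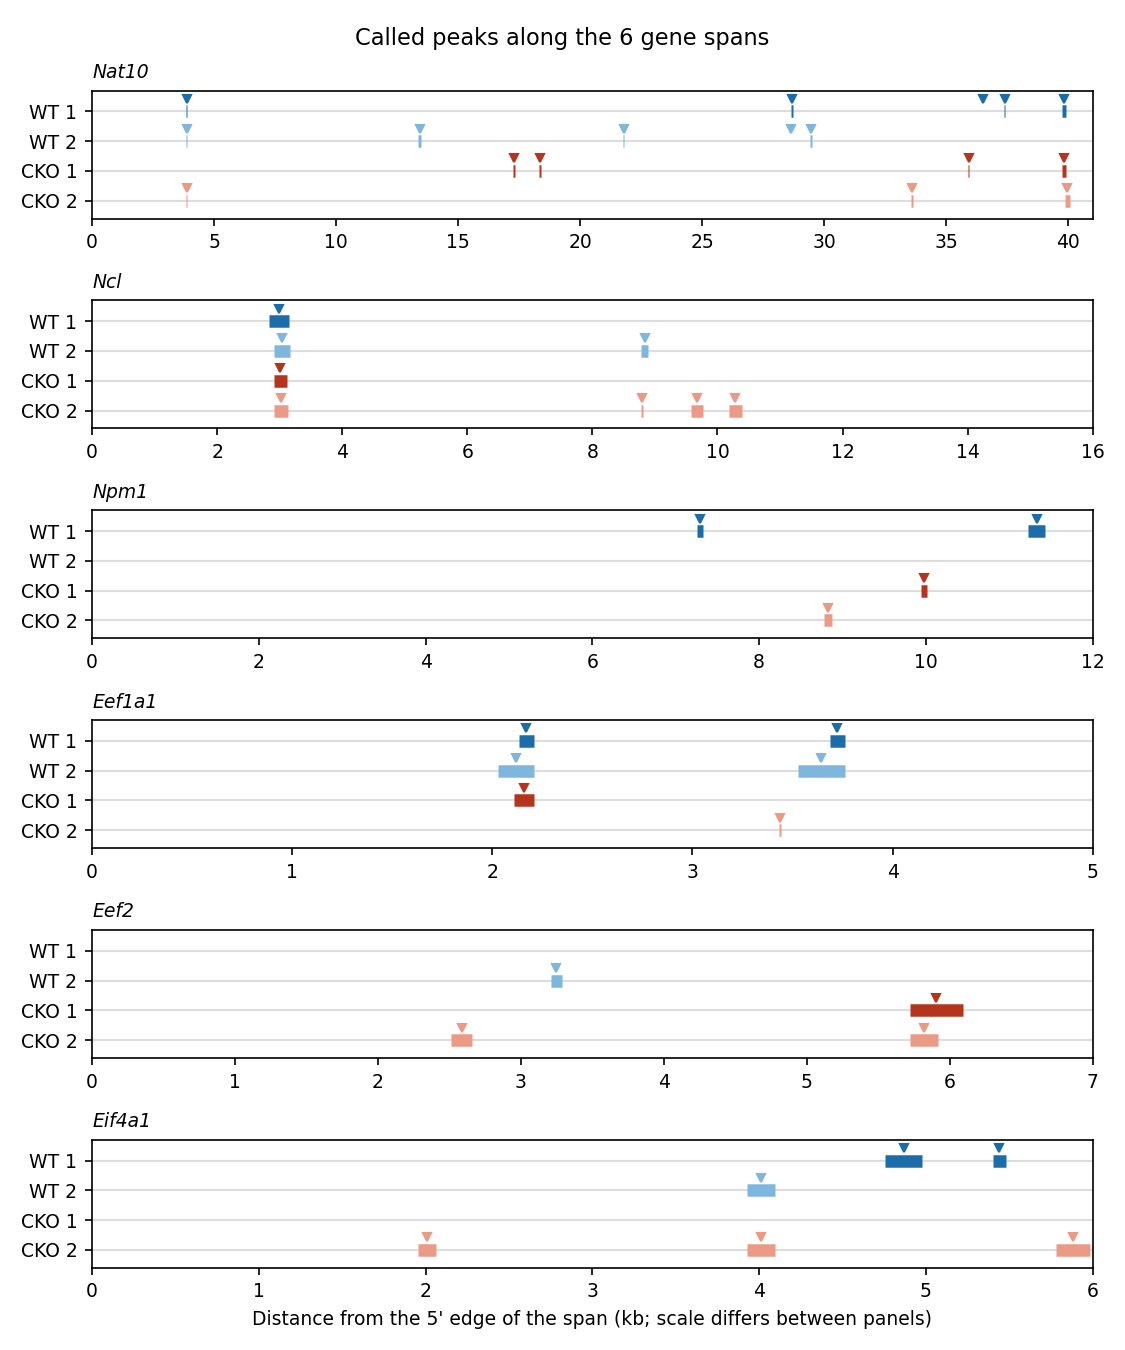
Each panel shows 1 gene span from its 5′ edge (left) to its 3′ edge, with the distance in kb on the x axis and the 4 lists as rows. Thick bars are called peaks to scale and a triangle above marks the centre of each. Ncl has a peak about 2.9 kb into the span in all 4 lists, while the 4 Npm1 peaks share no position.

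Of the regions of the 6 spans, only 1 was called in all 4 lists. It lay in Ncl, at bases 86284832 to 86285174 of chromosome 1, 2.83 to 2.91 kb into the span. Its width was 325 bases in WT 1, 259 in WT 2, 203 in CKO 1 and 225 in CKO 2, and 202 bases were common to all 4 peaks. Its score percentile was 97.2 in WT 1, 99.8 in WT 2, 90.3 in CKO 1 and 97.8 in CKO 2, so it lay in the top 10% of every list. Over all regions of the lists, 0.964% were called in all 4. At bases 86279116 to 86279215 a second Ncl region was held by WT 2 (percentile 76.4) and CKO 2 (67.5). Both peaks had their 5′ edge at base 86279215. CKO 2 alone had peaks at bases 86278240 to 86278418 (percentile 79.3) and 86277616 to 86277815 (6.0). In all, Ncl had 1 peak in WT 1, 2 in WT 2, 1 in CKO 1 and 4 in CKO 2. The genotypes overlapped (difference 1, exact two-sided p = 1), and without CKO 2 the difference was -0.5.

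The Npm1 span held 4 peaks at 4 separate places, and no base of it was called in 2 lists. WT 1 held 2 peaks, WT 2 held 0 and both CKO lists held 1 (difference 0, exact two-sided p = 1). The WT 1 peak at bases 33106674 to 33106747 stood at percentile 99.7 of its list, 84th from the top, and the nearest CKO peak was 1453 bases away. The other WT 1 peak, at bases 33102573 to 33102772, stood at percentile 86.8. The CKO 2 peak at bases 33105124 to 33105220 stood at percentile 77.0 and the CKO 1 peak at bases 33103986 to 33104060 at 4.1. All 4 peaks lay on the 3′ side of the span's midpoint, as did 29 of the 45 peaks of the 6 spans. Elsewhere the share was 50% in Ncl, Eef1a1 and Eef2, 64.7% in Nat10 and 83.3% in Eif4a1. No such share was taken over all peaks, and the midpoint is that of a span given to 1 kb with introns included.

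Per length of span, the 4 lists together held 12 peaks per 10 kb in Eef1a1, 10 in Eif4a1, 5.71 in Eef2, 5 in Ncl, 4.15 in Nat10 and 3.33 in Npm1. Eef1a1 and Eif4a1 both had 6 peaks, and with spans given to 1 kb their order is not settled. The Eef1a1 WT lists held 2 peaks each and the CKO lists 1 each (2 ± 0 against 1 ± 0, SD, n = 2 each; exact two-sided p = 0.333, adjusted p = 1), and without WT 2 the difference was again -1. At bases 78387793 to 78387970, peaks were present in WT 1 (percentile 99.1), WT 2 (99.9) and CKO 1 (99.0). The 3 peaks shared their 3′ edge, base 78387793. CKO 2 had no peak there. Among the 9 regions of the 6 spans held by 2 or more lists, this one ranked highest by its mean percentile. A second Eef1a1 region, at bases 78386240 to 78386474, was in both WT lists (percentile 78.1 in WT 1 and 99.6 in WT 2) and in neither CKO list. The nearest CKO peak, an 11-base call of CKO 2 at percentile 48.2, was 85 bases away. Peaks covered 150 and 413 bases of Eef1a1 in WT and 98 and 11 in CKO, which did not overlap (exact two-sided p = 0.333, not adjusted over the 6 spans). Both WT lists likewise covered more bases than both CKO lists in 10.9% of all loci, and in 16.6% of those with 4 to 17 peaks.

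The bases covered in Eef2 were higher in both CKO lists, 0 in WT 1 and 74 in WT 2 against 368 in CKO 1 and 335 in CKO 2 (exact two-sided p = 0.333, not adjusted). In the spans other than Eef1a1 and Eef2 the covered bases of the genotypes overlapped. Both CKO lists covered more bases in 9.75% of all loci and in 15.4% of those with 4 to 17 peaks. The Eef2 peak numbers were 0 and 1 in WT and 1 and 2 in CKO, which overlapped. The region at bases 81017723 to 81018090, 5.72 kb into the span, was called in both CKO lists, at percentile 79.2 in CKO 1 and 93.6 in CKO 2, and in neither WT list. The nearest WT peak was 2437 bases away, and both CKO peaks began at the same base. The highest-ranked Eef2 peak was in CKO 2 alone, at bases 81014515 to 81014655 (percentile 99.6), and the only WT peak, of WT 2, lay 556 bases further on at 81015212 to 81015285 (percentile 97.5).

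Eif4a1 had 2 peaks in WT 1, 1 in WT 2, 0 in CKO 1 and 3 in CKO 2, so its 2 CKO lists were further apart than the genotypes (difference 0, exact two-sided p = 1). The region at bases 69559904 to 69560072 had the same start and the same end in WT 2 (percentile 99.4) and CKO 2 (80.4). WT 1 had its peaks elsewhere, at bases 69559022 to 69559243 (percentile 98.5) and 69558521 to 69558600 (89.0). CKO 2 had additional peaks at bases 69561937 to 69562048 (percentile 24.5) and 69558020 to 69558219 (3.6).

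**Figure D3:**
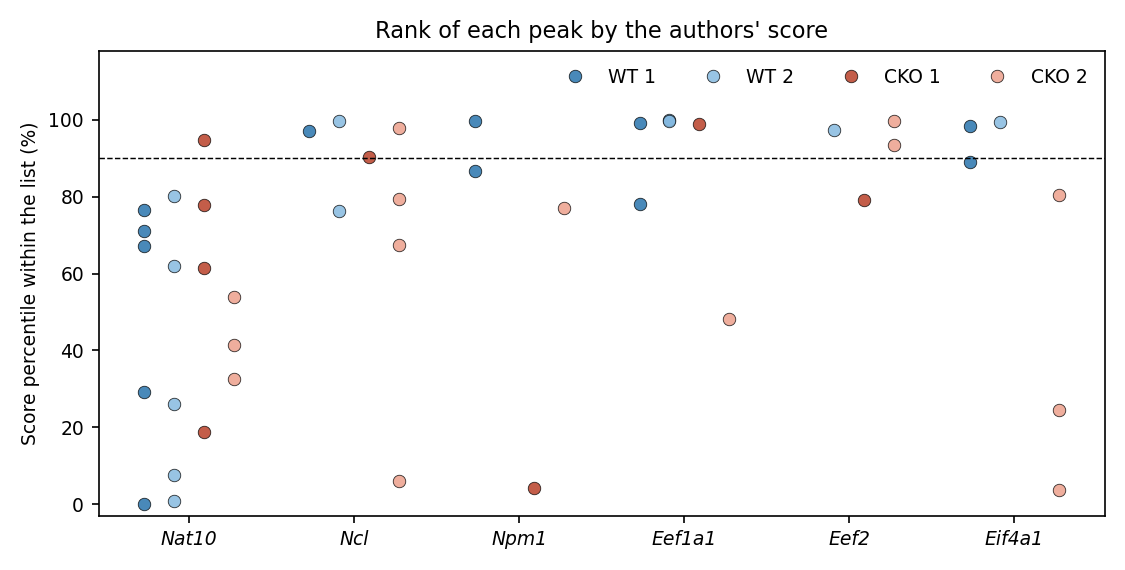
Each point is 1 peak, placed by gene (x axis) and by the percentile of the authors' score among all peaks of its own list (y axis), with the lists in colour and a dashed line at the 90th percentile. Of the 28 peaks outside Nat10, 14 lay in the top 10% of their list, against 1 of the 17 Nat10 peaks.

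Many peaks in the nucleolar and translation factor spans ranked high in their lists, and fewer of the Nat10 peaks did. Both sets reached low ranks, with percentiles from 3.6 to 99.9 in the 5 spans other than Nat10 and from 0.1 to 94.9 in Nat10. Of the 28 peaks in the 5 spans other than Nat10, 14 (50%) stood in the top 10% of their list, a share that is 10% over all peaks by construction, and their median percentile was 89.7. By list these were 4 of 7 in WT 1, 5 of 6 in WT 2, 2 of 4 in CKO 1 and 3 of 11 in CKO 2. By gene they were 4 of 8 in Ncl, 1 of 4 in Npm1, 4 of 6 in Eef1a1, 3 of 4 in Eef2 and 2 of 6 in Eif4a1. A region called in several lists counts once per list here, and the 4 Ncl peaks are all of the region called in all 4 lists. The 17 Nat10 peaks had a median percentile of 53.9. In the 5 other spans, the top 50% of the list held 7 of 7 peaks in WT 1, 6 of 6 in WT 2, 3 of 4 in CKO 1 and 7 of 11 in CKO 2. That share is 50% over all peaks by construction. Members were chosen with earlier results of these data known, so these shares are a description without a test. How abundant each mRNA was in the input could not be measured, and its part in these ranks was not tested.

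Regions of the 6 spans recurred between lists about as often as regions in general. Of their 31 regions, 22 (71%) were called in 1 list, against 69.1% of all 75389 regions, and 9 (29%) in 2 or more, against 30.9%. Held by both WT lists and no CKO list were 2 of the 31, in Nat10 and Eef1a1, where the share over all regions is 4.26%. Held by both CKO lists and no WT list was 1, in Eef2, where the share over all regions is 3.64%. The first of these counts rests on both WT lists, since with WT 1 or WT 2 left out a single list sets it and it came to 6 or 8. With CKO 1 left out the second count came to 9, and with CKO 2 left out to 5. The 9 recurring regions were Nat10 (3), Ncl (2), Eef1a1 (2), Eef2 (1) and Eif4a1 (1). In each of the 9, peaks of at least 2 lists began or ended at exactly the same base, which held for 74% of the 23274 recurring regions overall. Whether these shared bases are exon ends was not tested.

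**Figure D4:**
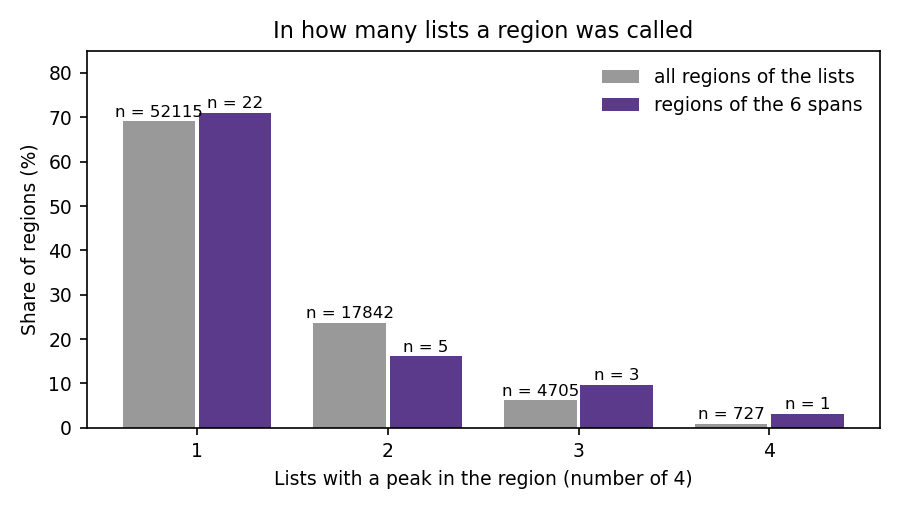
Bars give the share of regions (y axis, percent) called in 1, 2, 3 or 4 of the lists (x axis), for all 75389 regions (grey) and the 31 regions of the 6 spans (purple), with the number of regions above each bar. Most regions of either kind, 69.1% and 71%, were called in 1 list.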

How the data were processed

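Per the submitters' processing notes, reads were handled with STAR 2.7.8a, MACS2 2.2.7.1 and fastp 0.20.1, and the build was mm39. Per the labels, the deposited lists are peaks of IP against input, 1 list per library; how peaks were limited to mRNA and given a strand is not stated there. The deposited score of a peak is the authors' value, 5 or more in every list; which MACS2 quantity it is remains unknown. Other deposited columns are positions, read as BED and printed counting from 1.

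Peaks were assigned to the 6 spans by 1 shared base and merged over the 4 lists into regions. The number in a title (1 or 2) named the replicate. Counts and covered bases were compared between genotypes with an exact permutation test, two-sided, over the 4 lists; no model was fitted. Merging was tested on simulated lists of equally wide peaks in well separated places, which did not try short overlaps, short peaks or chained peaks. Every member is named; regions named are those in all 4 lists, in both lists of 1 genotype only, and the highest-ranked of each gene, and further peaks are given to account for all 45. Members, spans and alternatives were chosen with earlier results of these data known; the range of 4 to 17 peaks for loci, the midpoint, the shared edges and the share of 200-base peaks were chosen after the values were seen. Other genes of the pathways, cell type markers and peak sequences need an mm39 annotation or genome and were not analysed here. Python 3.11.15, numpy 2.4.6 and pandas 2.3.3 were used.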

Additional observations from a re-analysis of the deposited data

How the results depend on the processing

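Eef1a1 (fewer CKO peaks) and Eef2 (more) kept their direction under all 12 alternatives, but with 2 lists against 2 none passed a test. For Eef1a1 the difference in peaks of 100 bases or more was again -1. It then rested on WT 2 alone, since all peaks of WT 1 and of the CKO lists were narrower, and the genotypes overlapped. The Eef2 peak numbers overlapped already as reported. For Nat10 the difference of -1.5 shrank to -0.5, with overlapping genotypes, in the top 50% and with equal list sizes, and to 0 in peaks of 100 bases or more; leaving out 1 list gave -2 to -1. For the total of the 6 spans the difference of -0.5 went to 0 with equal list sizes and to 1 with peaks of 100 bases or more, and ranged from -3.5 to 2.5 with 1 list left out. Leaving out 1 list gave -0.5 to 2.5 for Ncl, -1 to 1 for Npm1, -1.5 to 1.5 for Eif4a1 and -242 to 484 for the bases covered, whose difference of 121 was -95 in the top 50% of each list. Npm1, 0 as reported, gave -0.5 in the top 50%, in peaks of 100 bases or more and with equal list sizes, and 0.0279 per 10000 peaks. Eif4a1, also 0, gave -1 in the top 50%, 0.5 with peaks of 100 bases or more and 0.0611 per 10000 peaks. Regions in both WT lists alone, 2 as reported, came to 1 with equal list sizes (Eef1a1), to 1 when joined across 100 bases (Nat10) and to 0 with peaks of 100 bases or more. In the top 50% the count was again 2, but the Nat10 region was then the one at base 103588111. Leaving out 1 list gave 3 to 8 regions in the remaining WT lists alone, 1 to 9 in the remaining CKO lists alone and 1 to 2 in all lists. The shared numbers in the titles were not taken as pairs. Over 27045 loci the number 1 minus number 2 differences of the genotypes correlated at r = -0.0474. With most regions called in 1 list, this value cannot settle whether samples of the same number shared a batch or culture. The replicate block leaves a mean difference unchanged by construction (-1.5 for Nat10); region counts within numbers averaged 8 (WT alone), 7.5 (CKO alone) and 3.5 (both), since 1 list then stands for each genotype. Widening the spans by 1 kb, asking for 50% of a peak inside the span or taking either strand changed no value. Covered bases of single spans were not put through these alternatives. Unknown depth limits all of the counts given here.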
